A study of Saccharomyces cerevisiae with 5 samples.

Results

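Sharp start clusters of single genes are narrow groups of neighbouring RNA start positions in the genome of the yeast Saccharomyces cerevisiae. A cluster was taken when the deposited table assigned it to 1 gene, when it spanned 30 bp or less, and when it reached 10 CPM (reads scaled to a common library total) in at least 1 of 5 libraries. The rule kept 100 clusters of 92 genes, out of 27176 distinct clusters in the table. Of the 17642 clusters with 1 gene, 11517 were this narrow, and 0.868% of those reached 10 CPM. The other 5033 single-gene clusters of 10 CPM or more were wider than 30 bp and are called broad below, so sharp clusters made up 1.95% of the single-gene clusters at that level. The members were chosen by their width, level and gene assignment in these libraries, and these values are given as a description.

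The libraries come from cap analysis of gene expression (CAGE), which captures the capped 5' end of an RNA and sequences from there, so that each read marks a start. They hold BY_DEH++ grown in DEH (2 days), BY_DEH+ in DEH (3 days), BY_DEH++ in mannitol (1 day), and BY_DEH++ and BY_DEH+ in glucose (overnight). All cultures had 10 mL of medium with 1% (w/v) of the carbon source at 30 °C. The strains are known here by name alone, and their alleles are not given in the sources used here. DEH is short for 4-deoxy-L-erythro-5-hexoseulose uronate; this sugar acid is released from the alginate of brown seaweed, and mannitol is a sugar alcohol of the same algae. Starting optical densities were 0.05 and 0.2 in DEH (BY_DEH++, then BY_DEH+), 0.02 in mannitol, and 0.05 in glucose in each strain. Final optical densities were 0.55 and 0.63 in DEH (BY_DEH++, then BY_DEH+), 0.79 in mannitol, and 0.95 and 0.91 in glucose. The medium, and in DEH the strain, thus cannot be told apart from culture time and density. Each group is 1 library, so no difference between groups has a replicate check, and the differences are given without p-values. Depth, recovered from the CPM of 1 read, ran from 9.43 to 19.9 M reads, and at the smallest of these depths 10 CPM had a 95% counting interval of 8.06 to 12.2 CPM. CPM gives a share of a library, so more RNA at a start in each cell, more cells using it and less RNA elsewhere cannot be told apart.

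Yeast promoters usually fire over a stretch of positions downstream of a nucleosome-free region. Focused starts are known from promoters with a TATA element, which binds the TATA-binding protein at a set distance. CAGE also reads other capped ends: the starts of small nucleolar RNAs, which guide the modification of ribosomal RNA, and those of Ty retrotransposons, whose long terminal repeats carry the promoter of the element. It can also pick up ends that are no start of transcription, since reverse transcription and recapping can place a 5' end within a transcript. What kind of end each cluster is was not tested here; the clusters were sorted by what the annotation of the S288C genome (build R64) shows at their place.

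By that sorting, 40 of the 100 sharp clusters lay upstream of the coding start of their gene (within 1000 bases), 23 inside its coding sequence, 12 with their 5' edge within 10 bases of the start of an internal coding exon, 8 in a long terminal repeat, 7 in the coding sequence of another gene, 5 at the start of a small nucleolar RNA gene and 5 elsewhere. Sharp clusters lay upstream of the coding start in 40% of cases (95% exact binomial interval 30.3 to 50.3), against 73.0% of broad ones. Internal exon edges held 12% of sharp and 0.139% of broad clusters, long terminal repeats 8% and 0.318%, and starts of small nucleolar RNAs 5% and 0.0993%. The places were defined after the values had been seen, so these shares describe the clusters and have no test.

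**Figure D1:**
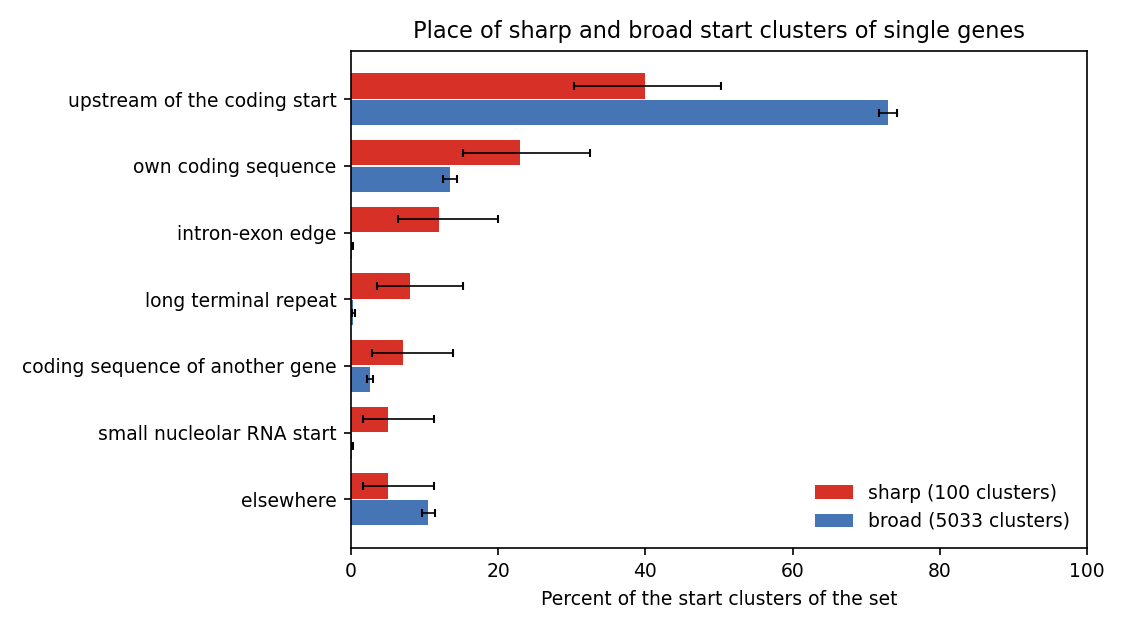
Percent of 100 sharp and 5033 broad start clusters of single genes that lie in each kind of place; bars start at 0 and error bars are 95% exact binomial intervals over clusters. Sharp clusters are upstream of the coding start in 40% of cases and broad ones in 73.0%, while exon edges hold 12% and 0.139%.

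The sequences below show what the narrowest and highest members look like. The first set holds the 8 highest clusters at internal exon edges, each as the last 25 bases of the intron and the first 15 of the exon, 5' to 3', with the cluster in capitals. They are shown because the cluster falls on or beside the AG that ends the intron in all of them.
RPL35A, chrIV:118133-118172, plus strand: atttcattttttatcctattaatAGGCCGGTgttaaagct
RPL36A, chrXIII:651599-651638, plus strand: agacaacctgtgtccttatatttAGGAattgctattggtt
RPL26A, chrXII:819753-819792, plus strand: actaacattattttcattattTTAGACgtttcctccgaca
RPL33A, chrXVI:282641-282680, plus strand: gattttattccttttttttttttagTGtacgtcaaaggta
RPS16A, chrXIII:552471-552510, plus strand: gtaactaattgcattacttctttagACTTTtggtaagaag
RPS9A, chrXVI:405433-405472, plus strand: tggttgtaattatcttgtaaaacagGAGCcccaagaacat
RPL26B, chrVII:556283-556322, plus strand: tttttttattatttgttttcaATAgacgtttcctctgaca
RPL23B, chrV:397257-397296, plus strand: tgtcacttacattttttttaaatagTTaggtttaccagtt

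The second set holds 4 of the 8 clusters in long terminal repeats, the 3 highest and the narrowest, with the cluster in capitals. The same stretch recurs with small changes in each, and the cluster spans 26 bases of it in DCD1, 15 in TIM10, 3 in LYS14 and 1 in UTP20.
DCD1, chrVIII:389244-389293, minus strand: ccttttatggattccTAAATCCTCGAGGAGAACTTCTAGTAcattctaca
TIM10, chrVIII:116492-116541, minus strand: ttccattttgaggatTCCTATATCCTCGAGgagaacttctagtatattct
LYS14, chrIV:520697-520746, plus strand: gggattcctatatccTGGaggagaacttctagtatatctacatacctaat
UTP20, chrII:226845-226894, plus strand: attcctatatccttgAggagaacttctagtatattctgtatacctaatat

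The third set holds the 3 highest starts of small nucleolar RNAs, with the RNA gene itself in capitals and 15 bases before the cluster, to show that the cluster opens just ahead of the annotated RNA.
SNR34, chrXII:899157-899216, plus strand: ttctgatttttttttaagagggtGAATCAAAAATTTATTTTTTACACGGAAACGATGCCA
SNR82, chrVII:316752-316811, plus strand: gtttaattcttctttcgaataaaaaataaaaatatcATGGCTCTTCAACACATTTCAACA
SNR4, chrV:424675-424734, plus strand: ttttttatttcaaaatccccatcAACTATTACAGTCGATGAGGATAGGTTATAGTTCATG

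The fourth set shows, within 30 bases, 3 clusters at the coding start, with the cluster in capitals after the 15 bases before it. HXT17 begins on the ATG of its own gene; the RPS22B cluster follows an AG and the RPS29A cluster begins on one, a few bases before the ATG.
HXT17, chrXIV:772642-772671, plus strand: agaaaaattaataaaATGCAATCATCCAct
RPS22B, chrXII:856413-856442, plus strand: cgtttcaaaacatagTAATTAGGTAAaaaa
RPS29A, chrXII:898629-898658, plus strand: gtttcctattattgcAGATAAaatggctca

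The last pair sets the promoter side of a sharp cluster beside that of a broad one, each as the 120 bases before the cluster, with a TATA element in capitals. In TIR1 the TATAAAA begins 70 bases before the sharp cluster, and the SPO24 window is that of the gene's broad main start.
TIR1 (sharp), chrV:175070-175189, plus strand: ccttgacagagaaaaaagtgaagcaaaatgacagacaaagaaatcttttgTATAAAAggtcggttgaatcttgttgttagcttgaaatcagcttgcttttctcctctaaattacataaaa
SPO24 (broad), chrXVI:645722-645841, plus strand: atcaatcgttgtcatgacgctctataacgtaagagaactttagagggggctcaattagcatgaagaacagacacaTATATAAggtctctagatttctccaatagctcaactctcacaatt

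The sharp clusters were mostly low and often seen in few libraries. Their width had a median of 16.5 bp (range 1 to 30), with 17 of 1 to 5 bp, 18 of 6 to 10 bp, 27 of 11 to 20 bp and 38 of 21 to 30 bp. The highest library of a sharp cluster had a median of 16.3 CPM, against 73.8 CPM for broad ones. Of the sharp clusters, 50 reached 10 CPM in exactly 1 library and 17 in all 5, whereas 6.36% of broad clusters did so in 1 and 77.6% in all 5. Only 21 were the highest cluster of their gene, compared with 82.7% of broad clusters. The limits were drawn through a continuum: at 30 bp MPE1, PGI1, HO and MPC2 were inside, with highest libraries of 22.9 to 59.2 CPM, and at 31 bp BUD27, SRT1, MUS81 and CHS1 were outside, with 10.0 to 29.0 CPM. By level, ATP2, PRE3, RPL41B and KTR5 were inside at 10.0 to 10.1 CPM, and RPS6B, ODC2, FZF1 and GIP3 outside at 9.76 to 9.94 CPM.

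Not every sharp cluster stands apart from its neighbours. Of the 100, 19 shared bases with a wider cluster on the same strand that was higher, by 39-fold or more (median 115-fold), against 0.457% of broad clusters. They were 12 of the clusters upstream of a coding start, 3 at exon edges (RPL27B, SAR1 and the RPA135-assigned one), 2 in their own coding sequence (ALD4 and VMA13), 1 in that of another gene (TFS1) and 1 elsewhere (RPL36A). How the authors cut reads into such nested clusters is not given in the sources used here. Further, 3 sharp clusters were assigned to a gene on the other strand and 7 lay over 1000 bases from the coding start of their gene, and the first 50 bases of 7 recur in the genome, 6 of them in long terminal repeats.

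The signal of the sharp clusters was concentrated in the mannitol library. Together they held 3026 CPM (BY_DEH++) and 2309 CPM (BY_DEH+) in DEH, 11658 CPM in mannitol, and 4149 CPM (BY_DEH++) and 2339 CPM (BY_DEH+) in glucose. These sums were 1.23% of the CPM of all clusters in mannitol and 0.243% to 0.434% in the other 4 libraries. In mannitol 59 sharp clusters reached 10 CPM, and 26 did so there and in no other library. These 26 are members through their mannitol level alone, so their being high there was set by the rule. Of the 5033 broad clusters, 100 reached 10 CPM in mannitol alone and 101 in BY_DEH+ in DEH alone. Exon edges gave 46.0% of the mannitol sum and starts of small nucleolar RNAs 30.7%. In glucose, long terminal repeats gave 62.3% of the BY_DEH++ sum, and 1 cluster, that of DCD1, held 2169 of these 2585 CPM. The title of the mannitol sample lacks the tag that the other 4 titles carry, and whether it was prepared with them is not given, so medium and preparation cannot be told apart.

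**Figure D2:**
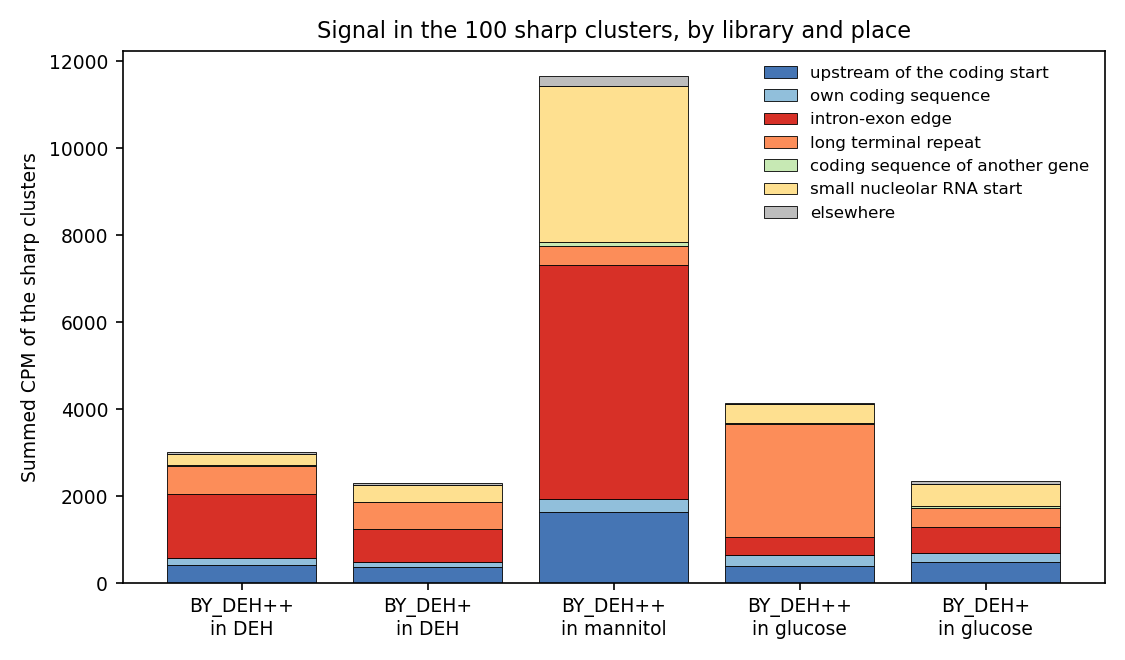
Summed CPM of the 100 sharp clusters in each library (1 per group), split by place; bars start at 0. The mannitol library stands at 11658 CPM and the others at 2309 to 4149 CPM, and exon edges and small nucleolar RNA starts fill most of the mannitol bar.

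Ribosomal protein genes owned 28 of the 100 sharp clusters (24 genes), against 3.44% of broad clusters. Most of the highest of these sat at internal exon edges. RPL35A, a protein of the large subunit, had the highest mean of all members: its cluster at chrIV:118156-118163 stood in DEH at 551.5 CPM in BY_DEH++ and 329 CPM in BY_DEH+, in mannitol at 2568 CPM, and in glucose at 151 CPM in BY_DEH++ and 224 CPM in BY_DEH+. Mannitol was far above the other libraries, and both DEH libraries lay above both glucose libraries. The ratio of reads was 17 (95% counting interval 16.3 to 17.8) for mannitol over glucose in BY_DEH++, 3.66 (3.49 to 3.84) for DEH over glucose in BY_DEH++ and 1.47 (1.40 to 1.56) in BY_DEH+. This cluster held 65.2% to 88.1% of the CPM at the edge and the first exon of RPL35A together. In every library more reads were thus counted at this edge than at the first exon, and what kind of end they mark was not tested. The coding part of the first exon of this gene is 3 bases long, and the intron is 491 bases.

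RPL36A, RPL26A and RPL33A, also of the large subunit, were highest in mannitol too. The RPL36A edge stood in DEH at 219 CPM in BY_DEH++ and 103 CPM in BY_DEH+, in mannitol at 748 CPM, and in glucose at 77.5 CPM in BY_DEH++ and 104 CPM in BY_DEH+. The RPL26A edge had 271 CPM (BY_DEH++) and 121 CPM (BY_DEH+) in DEH, 583 CPM in mannitol, and 81.3 CPM (BY_DEH++) and 111 CPM (BY_DEH+) in glucose. RPL33A had 126 and 67.5 CPM in DEH (BY_DEH++, then BY_DEH+), 860 CPM in mannitol, and 33.7 and 69.6 CPM in glucose in that order. In these 3 genes DEH and glucose differed by at most 0.12 on the log2 scale in BY_DEH+ and by 1.49 to 1.87 in BY_DEH++, with DEH higher. RPS16A, of the small subunit, stood at 149 and 53.9 CPM in DEH, 311 CPM in mannitol, and 25.9 and 38.3 CPM in glucose (BY_DEH++, then BY_DEH+).

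RPS9A, another small-subunit protein, had another order. Its edge cluster was highest in DEH, with 102 CPM in BY_DEH++ and 57.6 CPM in BY_DEH+, against 54.1 CPM in mannitol and 25.1 CPM (BY_DEH++) and 12.1 CPM (BY_DEH+) in glucose. RPL27B was listed at 0 in mannitol and reached 13.2 CPM in DEH in BY_DEH++. Beyond ribosomal proteins, edges were found in SAR1, the GTPase of vesicles leaving the endoplasmic reticulum, in YIP3 and in MRA1. The MRA1 edge cluster was assigned to the neighbouring RPA135, a subunit of RNA polymerase I. The highest library of these edge clusters had 10.7 CPM (SAR1), 10.2 CPM (YIP3) and 14.2 CPM (MRA1).

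**Figure D3:**
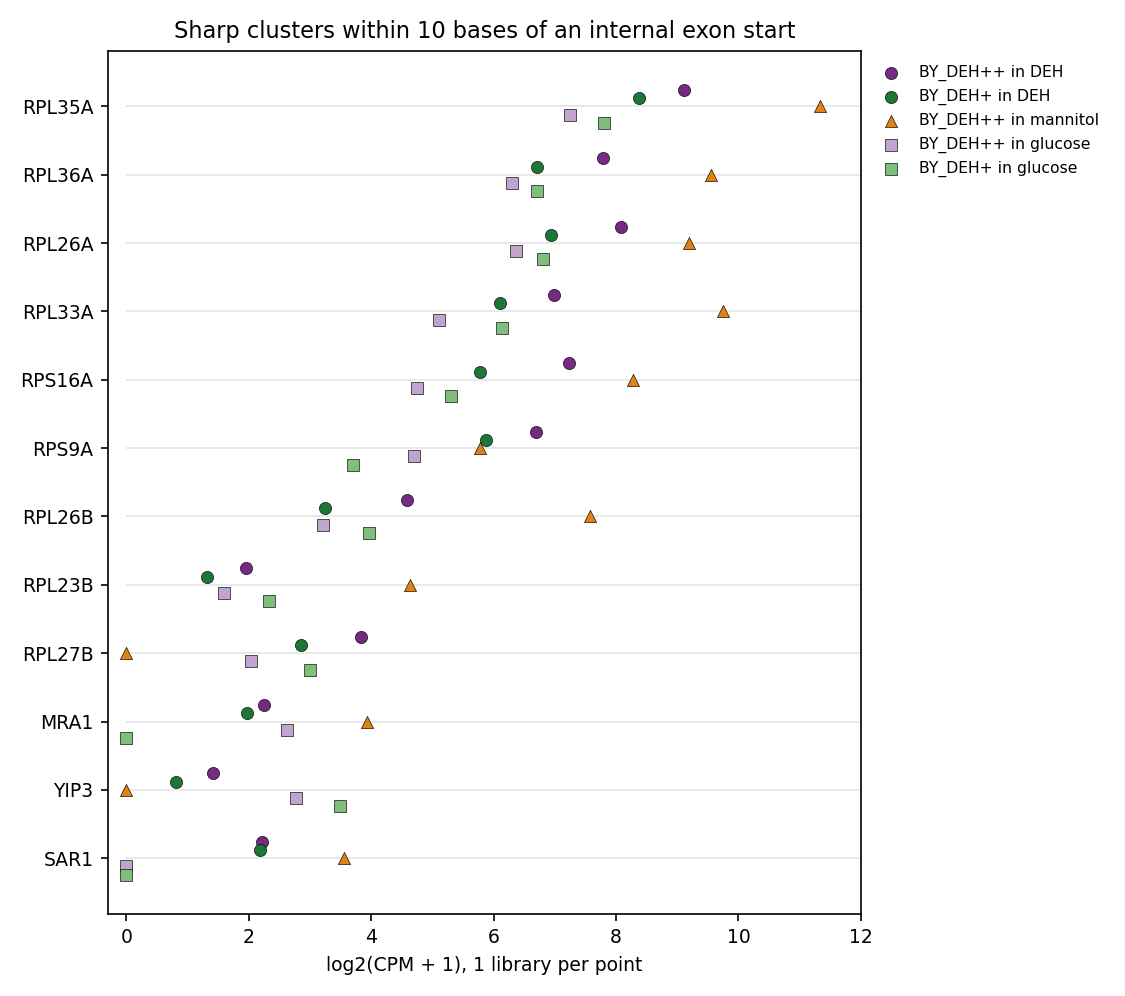
Level of the 12 sharp clusters at internal exon edges as log2(CPM + 1), 1 point per library, ordered by mean; values listed at 0 lie at 0. Mannitol is the highest library in 9 of the 12 genes, not in RPS9A, RPL27B or YIP3.

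The edges were set beside the first exons of the same genes, by summing the clusters from 500 bases before the coding start up to the intron. Over the 12 genes the edge took 19.8% (BY_DEH++) and 14.6% (BY_DEH+) of edge plus first exon in DEH, 27.8% in mannitol, and 20.5% (BY_DEH++) and 24.1% (BY_DEH+) in glucose. The median share over the 12 genes was lower and ordered otherwise, at 9.58% (BY_DEH++) and 5.01% (BY_DEH+) in DEH, 15.2% in mannitol, and 14.9% (BY_DEH++) and 18.1% (BY_DEH+) in glucose; RPL35A alone held 2568 of the 5361 CPM at the edges in mannitol. In summed CPM, edges had 1467 and 756 CPM in DEH, 5361 CPM in mannitol, and 419 and 594 CPM in glucose (BY_DEH++, then BY_DEH+). The first exons had 5954 and 4437 CPM in DEH, 13925 CPM in mannitol, and 1619 and 1874 CPM in glucose, so both sums put mannitol above DEH and DEH above glucose. Among 240 genes with an intron in the coding sequence and 10 CPM or more summed at the first exon in at least 1 library, 27 had an edge cluster of 10 CPM or more, whatever its width and gene assignment, and 22 of these were ribosomal protein genes. Another 44 had one under 10 CPM, and 169 had none. Ribosomal protein genes were 89 of the 240, 12 of the 44 and 55 of the 169. The median level of the first exon was 571 CPM in the 27 genes and 138 CPM in the 169 without an edge cluster. Of the 27 edge clusters, 19 were 30 bp wide or less; RPS24A, RPL42A and RPS13 were among those kept out of the members because the table gave them to more than 1 gene.

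A pair of high clusters lay just before a coding start. The sorting used only introns between coding exons, so an intron that ends before the coding start would not be seen. RPS22B, of the small subunit, had a cluster 9 bases before its ATG with 133 CPM (BY_DEH++) and 97.2 CPM (BY_DEH+) in DEH, 641 CPM in mannitol, and 11 CPM (BY_DEH++) and 17.1 CPM (BY_DEH+) in glucose. DEH exceeded glucose 12.1-fold in BY_DEH++ (interval 10.3 to 14.4) and 5.69-fold in BY_DEH+ (4.81 to 6.76), and mannitol exceeded glucose 58.3-fold. The main cluster of the gene, upstream, followed the same order, with 201 CPM in each strain in DEH, 782 CPM in mannitol, and 15.1 CPM (BY_DEH++) and 22.1 CPM (BY_DEH+) in glucose. The RPS29A cluster, 5 bases before its ATG, had 46.9 and 17.2 CPM in DEH, 635 CPM in mannitol, and 17.9 and 12.9 CPM in glucose (BY_DEH++, then BY_DEH+), so mannitol stood apart. DEH exceeded glucose there 2.63-fold in BY_DEH++ (2.27 to 3.04) and 1.33-fold in BY_DEH+ (1.05 to 1.68).

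Starts of small nucleolar RNAs were the other large part of the mannitol signal. The table gave these clusters to nearby protein-coding genes. The SNR34 start, assigned to RPS29A, opens 8 bases before the RNA gene and stood in DEH at 76.7 CPM in BY_DEH++ and 150 CPM in BY_DEH+, in mannitol at 2471 CPM, and in glucose at 222 CPM in BY_DEH++ and 218 CPM in BY_DEH+. It was thus lowest in DEH in both strains and 11.1-fold (10.7 to 11.6) higher in mannitol than in glucose. The SNR4 start, assigned to RPS26B, had 35.2 CPM (BY_DEH++) and 6.17 CPM (BY_DEH+) in DEH, 437 CPM in mannitol, and 16.1 CPM (BY_DEH++) and 19.8 CPM (BY_DEH+) in glucose. The SNR82 start, assigned to the SNARE gene USE1, had 105 and 175 CPM in DEH, 586 CPM in mannitol, and 133 and 198 CPM in glucose (BY_DEH++, then BY_DEH+). SNR45, assigned to ASN1, reached 27.2 CPM in mannitol and 5.38 to 8.89 CPM elsewhere. SNR32, assigned to SPS100 on the other strand, did not share the pattern, with 24.3 and 51.1 CPM in DEH, 60.1 CPM in mannitol, and 61.9 and 81.5 CPM in glucose (BY_DEH++, then BY_DEH+). Each of the 5 had a TATA motif 55 to 96 bases upstream of the cluster. A cluster assigned to RPS25B, 200 bases before SNR57 and upstream of SNR55 and SNR61 as well, had 23.0 and 35.4 CPM in DEH, 83.8 CPM in mannitol, and 19.7 and 25.6 CPM in glucose (BY_DEH++, then BY_DEH+).

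Of the 8 clusters in long terminal repeats, 7 had another order, with glucose above DEH in both strains. The annotation names 6 as Ty1 and 2 (DCD1 and THI72) as Ty2 repeats; those of UTP20 and THI72 close a full element at its 3' end. All 8 had TATAAAA 65 to 78 bases before the cluster. The repeat assigned to LYS14, a regulator of lysine synthesis on the other strand, stood in DEH at 10.7 CPM in BY_DEH++ and 10.4 CPM in BY_DEH+, in mannitol at 12.9 CPM, and in glucose at 158 CPM in BY_DEH++ and 142 CPM in BY_DEH+. Glucose lay far above all 3 other libraries, and the DEH over glucose ratio was 0.0675 (0.0583 to 0.0777) in BY_DEH++ and 0.0730 (0.0596 to 0.0887) in BY_DEH+. The repeat at TIM10, a mitochondrial import chaperone, had 84.7 and 42.3 CPM in DEH, 61.7 CPM in mannitol, and 160.5 and 171.5 CPM in glucose (BY_DEH++, then BY_DEH+). AAD15, THI72, UTP20 and KCC4 also stood higher in glucose than in DEH in both strains, at 10.3 to 30.2 CPM in glucose. The cluster of DCD1, a deoxycytidylate deaminase, did not follow. It had 525 CPM (BY_DEH++) and 534 CPM (BY_DEH+) in DEH, 336 CPM in mannitol, and 2169 CPM in BY_DEH++ but 6.47 CPM in BY_DEH+ in glucose. Over all 60 clusters of 10 CPM or more in repeats, DEH had 2268 CPM (BY_DEH++) and 1756 CPM (BY_DEH+), mannitol 1215 CPM, and glucose 10435 CPM (BY_DEH++) and 9558 CPM (BY_DEH+). The first 50 bases of 6 of the 8 recur in the genome (72 copies for UTP20, 44 for TIM10, 5 for DCD1), so the copy that gave the reads is uncertain.

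**Figure D4:**
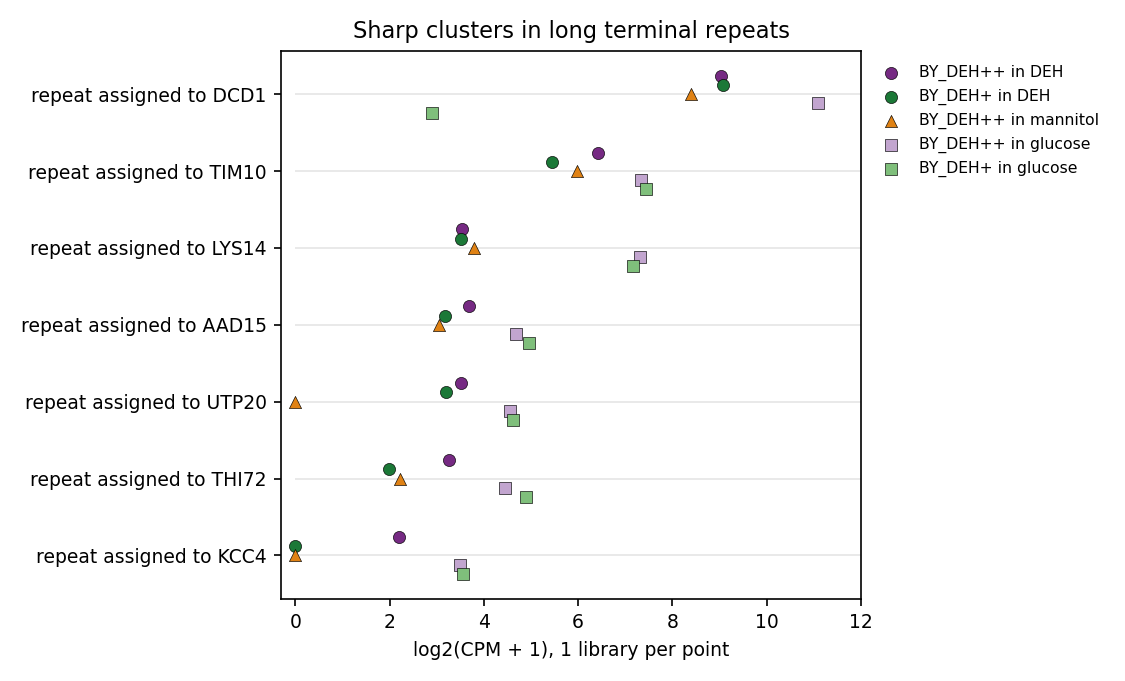
Level of 7 of the 8 sharp clusters in long terminal repeats as log2(CPM + 1), 1 point per library; values listed at 0 lie at 0. Glucose exceeds DEH in both strains in the 6 other than DCD1, and the cluster of DCD1 stands at 2169 CPM in BY_DEH++ and 6.47 CPM in BY_DEH+ in glucose.

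For DEH over glucose, a cluster was called when log2(CPM + 1) differed by 2 or more, a 4-fold change. In both strains 3 sharp clusters were higher in DEH and 12 lower; over all 6875 clusters of 10 CPM or more, 2.04% were higher and 4.35% lower. In BY_DEH++ alone 11 were higher and 14 lower (4.1% and 6.84% of all), and in BY_DEH+ 8 and 26 (4.83% and 8.42%). In each strain alone, the higher and the lower calls among sharp clusters were both above the background share. The 3 called higher in both strains were near it. The rule favours members that are high in 1 library, so the excess is not read as a response to the medium. Among the 19 clusters with 10 CPM or more in all 4 of these libraries, 1 was higher (RPS22B) and 1 lower (LYS14). The median difference over the sharp clusters was 0.00 in BY_DEH++ and -0.40 in BY_DEH+, beside -0.17 and 0.05 over all clusters tested.

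**Figure D5:**
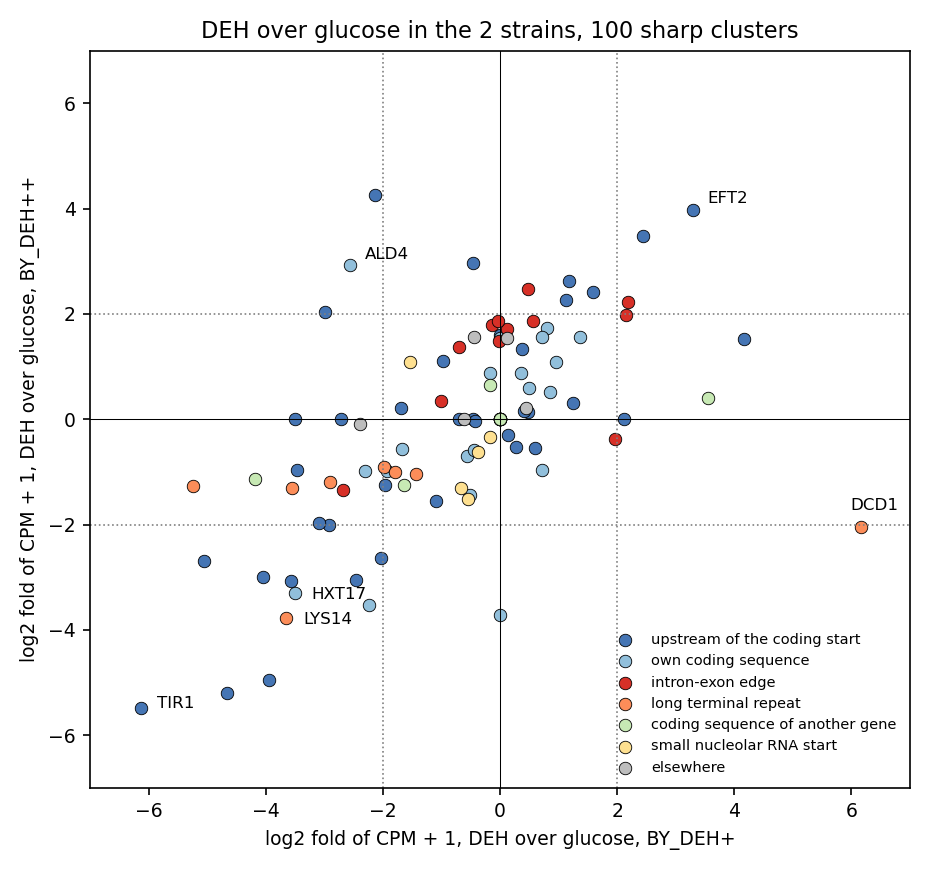
log2 fold of CPM + 1, DEH over glucose, in BY_DEH+ (x axis) and BY_DEH++ (y axis) for the 100 sharp clusters, coloured by place; dotted lines mark the 4-fold limit at 2 and -2. The lower left corner holds 12 clusters, among them TIR1, HXT17 and LYS14, and the upper right corner 3, among them EFT2.

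The clusters lower in DEH were led by TIR1, which encodes a mannoprotein of the cell wall. Its highest cluster, at chrV:175190-175205, was at 0 in both DEH libraries, stood at 21.1 CPM in mannitol, and had 43.8 CPM (BY_DEH++) and 69.4 CPM (BY_DEH+) in glucose. HXT17, of the hexose transporter family, had 8.65 CPM (BY_DEH++) and 5.42 CPM (BY_DEH+) in DEH, 13.2 CPM in mannitol, and 93.9 CPM (BY_DEH++) and 72.1 CPM (BY_DEH+) in glucose. This cluster begins on the ATG, so an RNA that starts at its 5' edge would have no leader. It was sorted under the coding sequence because its midpoint lies 6 bases inside. FIT1, a cell wall protein that holds siderophore iron, had a cluster far inside its coding sequence that was listed at 0 in DEH and mannitol and had 10.5 CPM (BY_DEH++) and 3.71 CPM (BY_DEH+) in glucose; its main cluster stood at 0.91 and 0.84 CPM in DEH and 411 and 267 CPM in glucose (BY_DEH++, then BY_DEH+).

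In ADH1, SPO24 and ICY1 the sharp clusters were faint beside the main cluster of the gene. ADH1, the main alcohol dehydrogenase of fermentation, had 3 sharp clusters 261 to 344 bases before its coding start. The highest of them was listed at 0 in DEH and in mannitol and had 35.8 CPM (BY_DEH++) and 24.4 CPM (BY_DEH+) in glucose, while the main cluster had 6785 and 6617 CPM in DEH, 12510 CPM in mannitol, and 3987 and 5945 CPM in glucose (BY_DEH++, then BY_DEH+). This cluster and the one nearest the gene lie within the main one. The third, at chrXV:160927-160950, lies outside it and was at 0 in both DEH libraries as well, against 3.44 CPM in mannitol and 6.93 CPM (BY_DEH++) and 15.6 CPM (BY_DEH+) in glucose. SPO24, a short protein of sporulation, had a sharp cluster 343 bases upstream that was listed at 0 in DEH and in mannitol and had 30.0 CPM (BY_DEH++) and 14.3 CPM (BY_DEH+) in glucose; its main start, with 8356 and 8351 CPM in DEH and 8825 and 9766 CPM in glucose, differed by at most 0.23 on the log2 scale. ICY1 had a cluster 673 bases upstream with 2.97 CPM in BY_DEH++ and 0 in BY_DEH+ in DEH, 5.07 CPM in mannitol, and 24.9 CPM (BY_DEH++) and 32.4 CPM (BY_DEH+) in glucose, and there the main cluster was lower in DEH too, by 2.45 and 2.22 on the log2 scale. MPC2, a subunit of the mitochondrial pyruvate carrier, PCT1 of phosphatidylcholine synthesis, TFS1, an inhibitor of carboxypeptidase Y, and SNA4 of the vacuole completed the list, with 7.38 to 22.9 CPM in glucose and 0 to 4.58 CPM in DEH.

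The 3 clusters higher in DEH were RPS22B, SAR1 and EFT2. EFT2, translation elongation factor 2, had a sharp cluster 509 bases before its coding start with 14.7 CPM (BY_DEH++) and 23.4 CPM (BY_DEH+) in DEH, 5.64 CPM in mannitol, and 0 (BY_DEH++) and 1.49 CPM (BY_DEH+) in glucose. The BY_DEH+ ratio was 15.7 (9.20 to 29.2), while the main EFT2 start differed by 0.93 in BY_DEH++ and 0.63 in BY_DEH+ on the log2 scale. SAR1 stood at 3.67 and 3.55 CPM in DEH and at 0 in both glucose libraries, and is a member only through its 10.7 CPM in mannitol. The main SAR1 start, which shares bases with this cluster, went the other way. Its DEH over glucose difference was -0.81 in BY_DEH++ and -0.79 in BY_DEH+ on the log2 scale. RPS9A, described above, missed the limit narrowly in BY_DEH++, at 1.98. Below the limit in 1 strain were ADY2, an acetate transporter, with 9.20 CPM (BY_DEH++) and 11.5 CPM (BY_DEH+) in DEH against 0.90 CPM (BY_DEH++) and 3.18 CPM (BY_DEH+) in glucose, and IME1, the inducer of meiosis, with 1.86 CPM (BY_DEH++) and 16.9 CPM (BY_DEH+) in DEH against 0 in both glucose libraries. Further down this order were RPS26B, RPL41B, SNU13 and FBA1, at 0.93 to 11.5 CPM in DEH and 0 to 3.92 CPM in glucose.

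For mannitol over glucose in BY_DEH++, 39 sharp clusters were 4-fold higher and 21 lower, while 6.47% of all clusters tested were higher and 13% lower. The median of the sharp clusters was 1.14 on the log2 scale and that of all clusters tested -0.56. The higher calls included 8 of 12 exon edges, 3 of 5 small nucleolar RNA starts, 12 of 40 clusters upstream of a coding start and 9 of 23 in their own coding sequence. With the level limit applied to the other 4 libraries alone, 17 of 74 members were higher, and without ribosomal protein genes 15 were. Among the 25 clusters at 10 CPM or more in mannitol and in glucose, 11 were higher and 3 lower. The share over all clusters was not computed for these subsets. Since the rule favours members that are high in 1 library, the excess is not read as a response to the medium. The largest difference belonged to a cluster assigned to RPL33B, 1004 bases before its coding start, with 82.4 CPM in mannitol and 0 in glucose in BY_DEH++. A cluster assigned to CTR2, a vacuolar copper transporter, lies in the coding sequence of the enolase gene ENO2 and had 45.6 CPM in mannitol and 0 in every other library. RPL40A, with 24.4 CPM in mannitol and 0 in glucose, shares bases with the main cluster of its gene. At the low end, ADH1, SPO24, UTP20, VMA13, FIT1 and TFS1 were listed at 0 in mannitol, against 10.3 to 35.8 CPM in glucose in BY_DEH++.

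Coding sequences held 14 clusters that reached 10 CPM in mannitol and nowhere else, among them SIM1, FBA1 and RPL3. PGI1, phosphoglucose isomerase, passed in glucose as well and had the highest mannitol level of those in their own coding sequence, with 6.13 CPM (BY_DEH++) and 8.22 CPM (BY_DEH+) in DEH, 59.2 CPM in mannitol, and 18.2 CPM (BY_DEH++) and 12.2 CPM (BY_DEH+) in glucose. SIM1, a cell wall protein, had 4.73 and 2.06 CPM in DEH, 40.5 CPM in mannitol, and 7.53 and 8.80 CPM in glucose (BY_DEH++, then BY_DEH+). FBA1, the aldolase of glycolysis, had 16 CPM in mannitol and the ribosomal protein gene RPL3 18.3 CPM, both with 0 in glucose in both strains. In PGI1 mannitol exceeded glucose 3.25-fold in BY_DEH++ (2.79 to 3.78), and the main PGI1 start had 1277 and 1341 CPM in DEH, 1351 CPM in mannitol, and 2003 and 1939 CPM in glucose (BY_DEH++, then BY_DEH+). The letters around the 5' edge were counted, from 2 bases before it to the fourth base after, and GG was present in 14 of 23 sharp clusters in their own coding sequence (60.9%, interval 38.5 to 80.3), against 21.6% of 677 broad ones in such sequence and 20% of the sharp clusters upstream of a coding start. Of the 14 coding clusters that passed in mannitol alone, 9 had it, against 21 of 47 broad ones. Examples, in 30 bases with the GG in capitals, are shown next.
PGI1, chrII:613443-613472, minus strand: acaagttcgttctGGtgaatggaagggtta
CTR2-assigned, within ENO2, chrVIII:452418-452447, plus strand: cgctgccaactGGggtgttatggtttccca
SIM1, chrIX:128488-128517, plus strand: cctcaacatctcaaGGggcatcctcctcct

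Other clusters in coding sequence were not highest in mannitol, or passed in more libraries. BNA2, tryptophan dioxygenase, had a cluster whose midpoint lies 28 bases inside the gene, with 34 CPM (BY_DEH++) and 23.4 CPM (BY_DEH+) in DEH, 6.98 CPM in mannitol, and 51.5 CPM (BY_DEH++) and 31.9 CPM (BY_DEH+) in glucose. FUN12, translation initiation factor eIF5B, and ABP140 stood at 6.33 to 13.0 CPM in every library. SED1, a cell wall mannoprotein, had 10.0 and 25.6 CPM in DEH, 26.3 CPM in mannitol, and 6.70 and 13.7 CPM in glucose (BY_DEH++, then BY_DEH+).

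For DEH over mannitol in BY_DEH++, 8 sharp clusters were 4-fold higher and 32 lower, against 6.88% and 5.5% of all clusters tested. This comparison shares its mannitol library with the last one, and its excess is likewise not read as a response to the medium. The lower end was led by RPL33B, CTR2, the SNR34 start, TIR1 and ARF1, and the upper end by ALD4, RPL27B, UTP20, GTB1 and RPL41B. ALD4, mitochondrial acetaldehyde dehydrogenase, had a cluster in its coding sequence with 29.5 CPM in BY_DEH++ and 0 in BY_DEH+ in DEH, 0 in mannitol, and 3.01 CPM (BY_DEH++) and 4.88 CPM (BY_DEH+) in glucose. It lies within the wide main cluster, which had 11414 CPM in BY_DEH++ and 17442 CPM in BY_DEH+ in DEH.

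Between the strains, BY_DEH++ over BY_DEH+ in DEH gave 9 sharp clusters higher and 3 lower (1.79% and 3.87% of all clusters tested), and in glucose 4 higher and 7 lower (0.465% and 0.975%). None of these passed where both strains had 10 CPM or more, which held for 24 clusters in DEH and 37 in glucose. In DEH the cultures of the strains also differed in days and starting density, so strain cannot be told apart from these. HO, the mating-type switching endonuclease, had 20.7 CPM in BY_DEH++ and 2.24 CPM in BY_DEH+ in DEH, and 17.8 CPM in BY_DEH++ and 9.55 CPM in BY_DEH+ in glucose, with 32.5 CPM in mannitol in BY_DEH++. POL4, a DNA polymerase of end joining, was listed at 0 in BY_DEH++ and had 11.1 CPM in BY_DEH+ in DEH. ERG28, of ergosterol synthesis, was listed at 0 in BY_DEH++ in DEH and in glucose, against 10.1 CPM and 14.2 CPM in BY_DEH+, but had 11.4 CPM in BY_DEH++ in mannitol. It shares bases with a 2-gene cluster that was higher in every library. AHA1 and DLD1 were also listed at 0 in BY_DEH++ in glucose, against 10.5 CPM and 10.3 CPM in BY_DEH+, and FCY2 had 0.60 CPM in BY_DEH++ and 16.4 CPM in BY_DEH+; the DLD1 and FCY2 clusters share bases with a higher one. In DEH, ALD4, RPL40A and PRE3 were at 4.12 to 29.5 CPM in BY_DEH++ and 0 in BY_DEH+, and IME1, RTS3 and TAX4 at 1.86 to 3.92 CPM in BY_DEH++ and 11.1 to 16.9 CPM in BY_DEH+. In glucose, VMA13, FPR1 and the MRA1 edge had 3.24 to 12.1 CPM in BY_DEH++ and 0 in BY_DEH+; the largest strain difference was that of the DCD1 repeat, 8.18 on the log2 scale.

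At a limit of 2-fold in place of 4-fold, DEH over glucose gave 9 higher and 23 lower in both strains (6.33% and 11% of all clusters tested), 30 and 28 in BY_DEH++ (10.2% and 18.9%) and 14 and 37 in BY_DEH+ (13.5% and 16.7%). Mannitol over glucose gave 51 and 30 (12.4% and 34.4%), and DEH over mannitol 17 and 47 (24.2% and 13%). The strains gave 23 higher and 8 lower in DEH (6.92% and 14.4%) and 6 higher and 15 lower in glucose (1.48% and 3.59%).

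Upstream of coding starts, the sharp clusters lay farther out than broad ones. Their midpoints were a median of 140 bases before the coding start (interval 98 to 300 by order statistics, 40 clusters), against 52 bases for 3672 broad clusters. Only 9 of these 40 were the highest cluster of their gene, against 92.3% of the broad ones, and 12 shared bases with a higher cluster. The contrast thus sets mostly secondary clusters beside main ones. Of the sharp ones 13 (32.5%) lay over 300 bases out, against 7.22% of broad ones. Some were level across libraries. SPT7, a subunit of the SAGA coactivator, had a sharp cluster as its highest start, with 33.7 and 48.3 CPM in DEH, 38.5 CPM in mannitol, and 30.7 and 34.4 CPM in glucose (BY_DEH++, then BY_DEH+), a range of 0.64 on the log2 scale; it was chosen after its values were seen. MPE1 of mRNA 3' end formation, the GTPase YPT11 and the mannosyltransferase KTR5 were likewise their genes' highest starts, with ranges of 1.41, 0.73 and 0.88. COX4, a subunit of cytochrome c oxidase, had 27.7 and 7.01 CPM in DEH, 33.4 CPM in mannitol, and 12.3 and 14.7 CPM in glucose (BY_DEH++, then BY_DEH+). Among the 12 members with a mean of 100 CPM or more, the smallest range was that of TIM10, 1.99, so none of the high members was level across the libraries.

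TATA motifs were searched as TATAAAA (or with T as its last letter) and TATATAA (or with T as its last letter) on the strand of the cluster in the 200 bases before it; these forms can overlap each other. A match was found before 29 of 100 sharp clusters (29.0%, interval 20.4 to 38.9) and 28.0% of broad ones, and in the 200 bases before 32.9% of all 6008 coding starts. The broad share lies within the interval of the sharp one. Repeats and small nucleolar RNA starts gave 13 of the 29; upstream of coding starts the shares were 22.5% (10.8 to 38.5) and 28.6%. The stress element AGGGG (either strand, 300 bases) stood before 12% of sharp and 22.9% of broad clusters, and before 20% and 23.3% of those upstream of a coding start. The Mig1 motif, searched as CCCCAC and CCCCGC in the same way, stood before 10% of sharp and 9.8% of broad clusters. Upstream of a coding start the shares were 22.5% (10.8 to 38.5) and 10%, and before all coding starts 7.41%. Neighbouring clusters of a gene, such as those of ADH1, share much of their window, so matches are not independent. Motifs of Hap, Gcn4, Aft1, Zap1 and Reb1 were also searched. They stood before 50%, 3%, 0%, 0% and 8% of sharp clusters. The broad shares were 43.9%, 3.14%, 1.67%, 0.179% and 9.68%. Both windows have the same length for sharp and broad clusters. A match is a description of letters, not of a bound factor.

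Within genes with at least 2 single-gene clusters and 10 CPM or more in the 4 libraries of DEH and glucose, 89 sharp clusters could be followed as a share of the gene. In 4 of them the share moved by 20 points or more in the same direction in both strains, and in all 4 it was lower in DEH. Over all 4078 single-gene clusters of 10 CPM or more in such genes, sharp or broad, 1.94% were lower and 2.13% higher by the same limit. HXT17 had 35.8% and 22.2% of the gene's CPM in its sharp cluster in DEH, 21% in mannitol, and 79.3% and 64.8% in glucose (BY_DEH++, then BY_DEH+). The repeat assigned to LYS14 had 8.03% and 9.97% in DEH and 50.9% and 47.7% in glucose, in the same order of strains. The SNR32 start had 55.6% and 25.7% of the CPM assigned to SPS100 in DEH, and 79.5% and 74.6% in glucose. BNA2 had 40.3% and 25.1% in DEH, and 63.3% and 50.5% in glucose. The SNR34 start followed at 42.7 and 19.9 points lower.

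By function, 25 sharp clusters belonged to 10 of 18 gene lists drawn from general knowledge of yeast. Glycolysis had 6 in 4 genes (3 of ADH1, and PGI1, FBA1 and ENO2). Their median DEH over glucose difference was -2.09, beside -0.04 over all sharp clusters. Of the 6, 2 were called lower in both strains, against 4.35% of all clusters tested, and both were of ADH1. These ADH1 clusters were faint, and the main ADH1 start differed by 0.77 in BY_DEH++ and 0.15 in BY_DEH+, with DEH higher. Gluconeogenesis had 2 (ADY2 and ALD4) and none called in both strains. The main starts of both genes were higher in DEH in each strain. On the log2 scale ADY2 differed by 5.06 and 6.07, and ALD4 by 3.28 and 3.49 (BY_DEH++, then BY_DEH+). The respiratory chain had ATP2 and COX4, cell wall mannoproteins TIR1 and SED1, ribosomal proteins on the list 7, and hexose transporters, iron uptake, Gcn4 targets and translation factors 1 each (HXT17, FIT1, ASN1 and EFT2). The heat shock list had 2, both of TFS1. The other 8 lists, for fatty acid oxidation, the tricarboxylic acid cycle, trehalose and glycogen, zinc, phosphate, mating type, oxidative stress and histones, had none; they held 10 to 37 broad clusters each, and sharp clusters were 1.95% of all single-gene clusters at this level.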

How the data were processed

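After preculture on solid YPGA, cells were grown in media based on HC-LN. RNA came from acid phenol-chloroform, and capped ends were biotinylated, trapped with a DNAFORM kit and read on a NextSeq500, per the labels' protocols. BWA, HISAT2 and mm9, which is a mouse build, appear in the submitters' processing notes; the sequence names in the table are those of yeast R64, the genome used here. The deposited values are a normalised signal, CPM per consensus cluster as scaled by the authors; the clustering, its filters and the gene assignment are not given in the sources used here. The values were planned as CPM and treated as a signal, since a cluster of several genes fills several lines.

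Each cluster was used 1 time. Whole reads were recovered from the step between low values (0.0503 to 0.106 CPM; all values up to 100 CPM within 0.15 of a read), and values below 5 to 10 reads are listed at 0. Starts were shifted by 1 base, after which 65.7% of 204 clusters of 1 base began on a purine after a pyrimidine (7.84% without the shift). Molecular identifiers are not stated, so intervals cover counting error only. Folds are differences of log2(CPM + 1), which understate changes of low clusters. Places were tested in the order long terminal repeat, small nucleolar RNA start (up to 30 bases ahead), exon edge (5' edge within 10 bases, introns of 40 bases or more), own coding sequence, that of another gene, upstream. Members, lists and places were chosen with earlier results of these data known. Clusters named are the 10 highest, the 10 largest DEH over glucose folds in each direction by the smaller strain, 8, 5, 5 and 4 in each direction of the other comparisons, up to 4 per gene list, the steadiest of mean 100 CPM or more, the largest share shifts, those at the limits and the 8 highest in coding sequence; others were chosen after their values were seen. The values of 1 cluster that the rule names are not reported here. Sequences were read from the RefSeq genome at the clusters themselves, beside the upstream windows first planned. Python 3.11.15, pandas 2.3.3, SciPy 1.17.1 and limma 3.58.1 (R 4.3.3) were used; the limma fit was tested on simulated data.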

Additional observations from a re-analysis of the deposited data

Results flagged for a closer look

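DEH over glucose moved past the 4-fold limit in opposite directions in the strains in 4 clusters; with 1 library per group the difference between the strains was not tested. The Ty2 repeat assigned to DCD1 differed by -2.04 on the log2 scale in BY_DEH++ and 6.16 in BY_DEH+, with 6.47 CPM in BY_DEH+ in glucose; its first 50 bases occur 5 times in the genome. RPL40A differed by 4.26 in BY_DEH++ and -2.13 in BY_DEH+, ALD4 by 2.93 and -2.56, and RPL33A (the cluster upstream of its coding start) by 2.04 and -3. The last 3 share bases with a higher cluster of their gene and are listed at 0 in 1 or more of these libraries. That higher cluster was above glucose in DEH in both strains. It differed by 2.68 and 1.73 in RPL40A, 3.28 and 3.49 in ALD4, and 2.23 and 1.20 in RPL33A (BY_DEH++, then BY_DEH+).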

How the results depend on the processing

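The counts past 4-fold moved with nearly every limit. Limits on width and level change the number of members itself. It was 62 up to 20 bp, 162 up to 40 bp, 376 at 5 CPM and 45 at 20 CPM, against 100. The counts below are thus not over a fixed set. Apart from the 2-fold limit, shares over all clusters were not computed at these settings. With a limit of 2-fold the counts became 14 higher for DEH over glucose in BY_DEH+, 30 higher and 28 lower for DEH over glucose in BY_DEH++, 17 higher for DEH over mannitol, 23 higher and 8 lower for BY_DEH++ over BY_DEH+ in DEH, 15 lower for BY_DEH++ over BY_DEH+ in glucose, 9 higher and 23 lower for DEH over glucose in both strains. With a pseudocount of 0.5 CPM the counts became 17 higher for DEH over glucose in BY_DEH++, 13 higher for DEH over mannitol, 14 higher for BY_DEH++ over BY_DEH+ in DEH, 6 higher for DEH over glucose in both strains. With one of 10 CPM the counts became 1 higher and 5 lower for DEH over glucose in BY_DEH+, 2 higher and 5 lower for DEH over glucose in BY_DEH++, 13 higher and 4 lower for mannitol over glucose, 0 higher and 11 lower for DEH over mannitol, 0 higher and 0 lower for BY_DEH++ over BY_DEH+ in DEH, 1 higher and 0 lower for BY_DEH++ over BY_DEH+ in glucose, 0 higher and 3 lower for DEH over glucose in both strains. With widths up to 20 bp the counts became 14 lower for DEH over glucose in BY_DEH+, 7 higher and 8 lower for DEH over glucose in BY_DEH++, 13 lower for mannitol over glucose, 4 higher for DEH over mannitol, 4 higher for BY_DEH++ over BY_DEH+ in DEH, 4 lower for BY_DEH++ over BY_DEH+ in glucose, 7 lower for DEH over glucose in both strains. With widths up to 40 bp the counts became 16 higher for DEH over glucose in BY_DEH+, 17 higher for DEH over glucose in BY_DEH++, 33 lower for mannitol over glucose, 15 higher for DEH over mannitol, 9 lower for BY_DEH++ over BY_DEH+ in DEH, 6 higher for DEH over glucose in both strains. At 5 CPM the counts became 42 higher and 77 lower for DEH over glucose in BY_DEH+, 36 higher and 53 lower for DEH over glucose in BY_DEH++, 109 higher and 73 lower for mannitol over glucose, 33 higher and 95 lower for DEH over mannitol, 25 higher and 29 lower for BY_DEH++ over BY_DEH+ in DEH, 16 higher and 17 lower for BY_DEH++ over BY_DEH+ in glucose, 12 higher and 36 lower for DEH over glucose in both strains. At 20 CPM the counts became 4 higher and 11 lower for DEH over glucose in BY_DEH+, 5 higher and 8 lower for DEH over glucose in BY_DEH++, 20 higher and 10 lower for mannitol over glucose, 3 higher and 16 lower for DEH over mannitol, 5 higher and 0 lower for BY_DEH++ over BY_DEH+ in DEH, 1 higher and 1 lower for BY_DEH++ over BY_DEH+ in glucose, 7 lower for DEH over glucose in both strains. With 10 CPM in both libraries compared the counts became 2 higher and 1 lower for DEH over glucose in BY_DEH+, 2 higher and 2 lower for DEH over glucose in BY_DEH++, 11 higher and 3 lower for mannitol over glucose, 0 higher and 8 lower for DEH over mannitol, 0 higher and 0 lower for BY_DEH++ over BY_DEH+ in DEH, 0 higher and 0 lower for BY_DEH++ over BY_DEH+ in glucose, 1 higher and 1 lower for DEH over glucose in both strains. Without the 19 clusters that share bases with a higher one the counts became 17 lower for DEH over glucose in BY_DEH+, 5 higher for DEH over glucose in BY_DEH++, 4 higher for DEH over mannitol, 4 higher for BY_DEH++ over BY_DEH+ in DEH, 2 higher and 1 lower for BY_DEH++ over BY_DEH+ in glucose. With the level limit applied without the mannitol library the counts became 17 higher for mannitol over glucose, 13 lower for DEH over mannitol. Without ribosomal protein genes the counts became 6 higher for DEH over glucose in BY_DEH++, 15 higher for mannitol over glucose, 16 lower for DEH over mannitol, 4 lower for BY_DEH++ over BY_DEH+ in glucose.

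The number of sharp clusters was 62 with widths up to 20 bp, 162 with widths up to 40 bp, 376 at 5 CPM and 45 at 20 CPM, and 74 to 96 without 1 library, the lowest without mannitol. At 5 CPM 41.2% lay in their own coding sequence, against 23.0%. With a limit of 30 points, 2 clusters kept a shift of share. Median-of-ratios scaling moved the median of all clusters tested to -0.16, against -0.56 as deposited, for mannitol over glucose, to 0.00 against 0.32 for DEH over mannitol and to -0.04 against -0.24 between strains in DEH, and kept every count within 1.5 times. An exact binomial test of the recovered reads, run for the single-strain and mannitol counts, removed no call; a 4-fold difference at these depths passes a test of counting error, so this says nothing of stability. limma with medium and strain as terms has 1 residual degree of freedom. At an adjusted p of 0.05 it called 0 sharp clusters higher and 0 lower in DEH, and 0 of all 6875 clusters fitted. At an unadjusted p under 0.05 it had 12 sharp clusters higher and 25 lower, and 664 and 1076 of the 6875. The strain term sets DEH against glucose within each strain. No paired analysis was possible because the labels give no replicate numbers, beyond that strain term. Values below 5 to 10 reads are listed at 0, so faint starts were not detectable at this depth. The alternatives without overlapping clusters, without the mannitol library in the level limit and without ribosomal protein genes were chosen after seeing the data.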
